A study of Mus musculus with 20 samples.

Results

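The mouse immunoglobulin loci were examined in ATAC-seq peak lists, in which a peak marks a stretch of DNA that the Tn5 transposase could reach. Peaks of all 12 deposited lists were merged where they overlapped by at least 1 base. This gave 101333 regions, of which 581 lay inside the loci in mm10: 259 in the heavy chain locus Igh (chr12:113225000-116010000), 289 in the kappa light chain locus Igk (chr6:67530000-70740000) and 33 in the lambda light chain locus Igl (chr16:19020000-19265000). Members were chosen by position among the merged regions, and a region exists only where at least 1 list holds a peak, so the longer BM lists contribute more of them. A single further region crossed an edge of these windows and was not counted. The 581 regions had a median length of 353 bases, between 150 and 1719 bases, against 387 bases for all regions.

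Each immunoglobulin locus holds many variable (V) segments, a few joining (J) segments and constant genes, and the heavy chain locus also holds diversity (D) segments. Developing B cells in the bone marrow (BM) join a V, a D and a J segment in the heavy chain locus, and then a V and a J segment in a light chain locus, by cuts of the Rag1 and Rag2 proteins at recombination signals. A recombination signal is made of a heptamer and a nonamer held apart by a spacer, and lies directly after each V segment. V promoters carry an octamer that is bound by Oct factors, and enhancers lie between the J segments and the constant genes and beyond the constant genes. CTCF, which holds chromatin loops together, binds many sites in the heavy chain locus.

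The study prepared 3 libraries for each of 4 groups of sorted cells from untreated young female mice: BM CSF1R+, BM CSF1R-, spleen CSF1R+ and spleen CSF1R-. CSF1R is the receptor of the macrophage growth factor CSF1, and the study asked whether B-cell precursors that carry it differ in open chromatin from those that do not. Its text describes B-cell precursors and immature B cells sorted from both organs, while the labels of the deposited libraries call all of them macrophages. No genotype, strain or mouse is given per library, so it is not known whether replicates are separate animals, and p-values below measure the spread between libraries only. The promoters, taken as 500 bases either side of the gene start, were checked for cell identity. A peak was present in all 6 BM libraries at 7 of 8 B-lineage genes and in all 6 spleen libraries at 8 of 8. The exception, Cd22, had no peak in BM CSF1R+ libraries and 4.19 to 5.76 in BM CSF1R- libraries. Fold enrichments of the 8 genes summed to 59.9 to 65.7 per BM CSF1R+ library and 67.2 to 72.1 per BM CSF1R- library. Absent peaks counted as 0 in these sums, and with Cd22 left out the sums of the BM groups overlapped. No library had a peak at any of 5 T and NK cell genes. Early B-cell genes had a peak in all 6 BM libraries at 6 of 8 and in all 6 spleen libraries at 2 of 8. Their fold enrichments summed to 65.7 to 69.0 per BM CSF1R+ library and 72.1 to 75.1 per BM CSF1R- library. Rag1 had a fold enrichment of 11.5 to 13.6 in BM and no peak in spleen, while Fcer2a, a gene of mature B cells, had 19.4 to 23.5 in spleen and no peak in BM. The other gene of later B cells, Cr2, had a peak in all 12 libraries, at 29.2 to 32.1 in BM and 21.7 to 25.5 in spleen. Of 8 monocyte, macrophage and neutrophil genes, 4 had a promoter peak in all 6 BM libraries (Cd14, Lyz2, Itgam and Adgre1) and 2 in all 6 spleen libraries (Cd14 and Itgam), and no library had one at Csf1r, Elane or the plasma cell genes Jchain and Prdm1. Ly6g had a peak in 3 BM libraries (4.58 to 7.09) and Mpo in BM CSF1R+ replicates 2 and 3 (4.28 and 4.06). Lyz2, Adgre1, Ly6g and Mpo had no peak in spleen. Itgam went the other way, at 3.45 to 4.82 in BM and 9.01 to 12.8 in spleen, and Cd14 overlapped between tissues. The fold enrichments of all 8 genes summed to 21 to 29.99 per BM library and 13.8 to 19.8 per spleen library. In BM these sums, like those of the later B-cell genes, overlapped between CSF1R+ and CSF1R- libraries. Genes that all cells use can also lack a promoter peak here (Xrcc6 and Prkdc had none), so absent peaks say little on cell identity. The part of such cells in the results below was not tested. In such bulk libraries, fewer cells with an open site and a less open site per cell cannot be told apart. Where a rearrangement deletes the DNA between the joined segments, rather than inverting it as many kappa V segments do, lost DNA and closed chromatin cannot be told apart either.

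The lists were of unequal length, with 65832 to 76530 peaks in BM and 43407 to 50392 in spleen, and the depth behind each list is unknown, since peak lists hold no read counts. Strength was read as fold enrichment, the ratio of reads at the peak to the local background that the peak caller MACS gives, with medians of 7.34 to 8.59 in BM and 9.22 to 10.1 in spleen. Beside the main counts of regions that were called or all-or-none, the share over all regions is given. For many counts under alternative settings it is not.

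For 9 members, 7 of them described further below and 2 as examples of V segments, 300 bases around the summit of the strongest peak are shown first. They were read from the RefSeq genome of GRCm38, the assembly behind mm10, and are written in the direction in which the locus or the V segment is transcribed. Capitals mark letters that matched a searched motif on either strand: the octamer ATGCAAAT, the heptamer CACAGTG, the nonamer ACAAAAACC, the E box CAGGTG, the ETS-IRF element GGAANNGAA, the EBF1 core CCCNNGGG, the NF-kappaB element GGACTTTCC, and the CTCF core (CCA, 2 of any base, AG, 2 of any base, GGC). The NF-kappaB element was added after the sequences had been read. The first 5 windows lie outside the V parts: the intron between the Igk J segments and Igkc (chr6:70725638-70725937, plus strand), the interval between Ighm and the Igh J segments (chr12:113427296-113427595, minus strand), 2 sites beyond Igha (chr12:113241375-113241674 and chr12:113244793-113245092, minus strand) and a site near Ighg3 (chr12:113366409-113366708, minus strand).
Igk J to Igkc: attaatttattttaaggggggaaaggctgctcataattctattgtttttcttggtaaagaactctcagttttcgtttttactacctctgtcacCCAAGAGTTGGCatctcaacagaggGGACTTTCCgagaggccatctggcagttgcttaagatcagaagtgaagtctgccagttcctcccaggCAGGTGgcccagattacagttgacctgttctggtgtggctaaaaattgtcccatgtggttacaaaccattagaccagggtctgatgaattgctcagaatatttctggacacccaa
Ighm to J: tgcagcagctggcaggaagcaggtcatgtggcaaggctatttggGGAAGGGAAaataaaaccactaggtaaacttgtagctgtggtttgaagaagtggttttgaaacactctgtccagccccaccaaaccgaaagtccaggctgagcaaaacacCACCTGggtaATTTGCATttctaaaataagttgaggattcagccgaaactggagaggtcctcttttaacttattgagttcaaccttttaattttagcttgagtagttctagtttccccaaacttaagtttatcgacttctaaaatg
below Igha, BM only: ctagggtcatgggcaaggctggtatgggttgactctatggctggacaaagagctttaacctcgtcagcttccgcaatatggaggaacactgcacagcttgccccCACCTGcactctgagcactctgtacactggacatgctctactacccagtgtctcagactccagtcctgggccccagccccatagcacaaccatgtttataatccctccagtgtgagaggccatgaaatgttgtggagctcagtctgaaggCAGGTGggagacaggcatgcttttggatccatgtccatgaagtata
below Igha, spleen higher: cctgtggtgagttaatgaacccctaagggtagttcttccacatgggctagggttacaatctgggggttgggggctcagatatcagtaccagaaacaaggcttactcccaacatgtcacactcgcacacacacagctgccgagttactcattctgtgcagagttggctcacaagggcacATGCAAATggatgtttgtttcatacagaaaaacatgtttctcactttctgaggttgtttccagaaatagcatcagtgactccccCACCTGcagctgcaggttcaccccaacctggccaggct
near Ighg3, spleen only: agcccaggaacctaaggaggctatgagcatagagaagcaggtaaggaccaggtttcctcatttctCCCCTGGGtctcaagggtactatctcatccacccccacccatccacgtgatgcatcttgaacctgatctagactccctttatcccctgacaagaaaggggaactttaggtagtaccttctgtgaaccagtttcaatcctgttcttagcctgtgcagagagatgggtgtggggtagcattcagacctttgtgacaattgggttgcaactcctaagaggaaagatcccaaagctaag

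The intron window holds the NF-kappaB element at bases 119 to 127, a CTCF core at 94 to 105 and an E box at 186 to 191. The window between Ighm and the J segments holds an ETS-IRF element at bases 45 to 53, an E box at 155 to 160 and an octamer at 165 to 172. Of the windows below Igha, the one with peaks in BM alone holds 2 E boxes and the one higher in spleen holds an octamer and an E box. The window near Ighg3 holds an EBF1 core, a pattern that matches on both strands.

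The other 4 windows lie at V segments or at the lambda J and constant genes: Igkv14-134-1 (chr6:67711572-67711871, minus strand), Igkv4-57 (chr6:69575779-69576078, minus strand), Ighv4-2 (chr12:114012930-114013229, minus strand) and Iglj2 with Iglc2 (chr16:19200193-19200492, minus strand). Igkv4-57 and Ighv4-2 were chosen after their values were seen. Igkv4-57 was the highest Igk V region with a peak in every library and a heptamer and nonamer at the spacing given below. Ighv4-2 was chosen for peaks in BM alone and for a window with both a heptamer and a CTCF core.
Igkv14-134-1: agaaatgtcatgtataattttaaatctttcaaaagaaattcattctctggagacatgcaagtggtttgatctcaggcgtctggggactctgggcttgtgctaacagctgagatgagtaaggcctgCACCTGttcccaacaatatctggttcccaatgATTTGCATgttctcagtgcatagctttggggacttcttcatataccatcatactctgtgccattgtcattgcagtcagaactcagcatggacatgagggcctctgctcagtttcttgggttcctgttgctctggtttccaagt
Igkv4-57: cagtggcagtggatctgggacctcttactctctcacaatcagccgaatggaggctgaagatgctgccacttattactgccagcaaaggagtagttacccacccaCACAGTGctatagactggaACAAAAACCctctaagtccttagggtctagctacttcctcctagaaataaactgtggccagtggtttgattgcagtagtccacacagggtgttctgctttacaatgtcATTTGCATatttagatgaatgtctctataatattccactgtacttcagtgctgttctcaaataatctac
Ighv4-2: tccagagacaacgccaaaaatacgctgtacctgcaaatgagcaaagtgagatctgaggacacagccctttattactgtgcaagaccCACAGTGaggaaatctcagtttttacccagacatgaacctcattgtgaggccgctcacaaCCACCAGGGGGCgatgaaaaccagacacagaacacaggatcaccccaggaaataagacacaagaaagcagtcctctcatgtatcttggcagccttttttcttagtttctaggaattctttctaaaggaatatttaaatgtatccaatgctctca
Iglj2 and Iglc2: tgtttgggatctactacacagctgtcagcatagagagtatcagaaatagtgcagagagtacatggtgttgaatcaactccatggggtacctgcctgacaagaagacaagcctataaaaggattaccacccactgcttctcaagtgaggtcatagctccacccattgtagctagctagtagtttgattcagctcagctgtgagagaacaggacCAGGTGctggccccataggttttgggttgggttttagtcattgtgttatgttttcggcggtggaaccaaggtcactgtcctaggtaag

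At Igkv14-134-1, which the GENCODE annotation lists as a V pseudogene, the summit lay before the V segment. Its window holds an octamer at bases 158 to 165 and an E box at 126 to 131. At Igkv4-57 the summit lay 46 bases past the end of the V segment, and the window holds the heptamer at 105 to 111, the nonamer at 124 to 132, a spacer of 12 bases between them, and an octamer at 232 to 239. At Ighv4-2, which GENCODE also lists as a V pseudogene, the heptamer stands at 87 to 93 and a CTCF core at 147 to 158. The summit lay 64 bases past the V segment and at the CTCF core, and no nonamer was matched. The Iglj2 and Iglc2 window holds an E box. Of the 2 examples, Igkv4-57 had a fold enrichment of 13.1 to 19.1 in BM and 15.2 to 20.9 in spleen, with overlap. Ighv4-2 had 6.98 to 14.4 in BM and no peak in spleen. Their presence or absence by tissue, and the motifs and spacing named for their choice, follow from how they were chosen.

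The heavy chain and lambda loci moved in opposite directions between the tissues. Among the 259 Igh regions, a peak was called in 141, 193, 174, 161, 169 and 182 in the BM libraries (CSF1R+ replicates 1 to 3, then CSF1R- replicates 1 to 3) and in 46, 43, 37, 36, 37 and 45 in the spleen libraries, in the same order. Among the 289 Igk regions the counts were 179, 189, 193, 213, 213 and 209 in BM and 106, 113, 111, 83, 95 and 113 in spleen. Among the 33 Igl regions they were 15, 15, 15, 17, 19 and 20 in BM and 24, 19, 22, 21, 22 and 22 in spleen. BM and spleen libraries did not overlap at Igh and Igk, and overlapped at Igl.

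Since BM lists were longer, the counts were set against each library's own number of regions with a peak. Igh regions made up 2.47 ± 0.130 (SD, n = 6) of every 1000 in BM and 0.881 ± 0.0638 (SD, n = 6) in spleen, a ratio of 2.80. Igk regions made up 2.91 ± 0.268 and 2.24 ± 0.149 per 1000, a ratio of 1.30. Igl regions made up 0.246 ± 0.0346 and 0.471 ± 0.0429 per 1000, a ratio of 0.521. For each locus the BM and spleen libraries did not overlap, and the exact permutation test over libraries (two-sided, all splits of the 12) gave p = 0.00216, the smallest it can give, and an adjusted p = 0.00433 over the 6 tests of shares (n = 6 per tissue). With lists cut to the length of the shortest, Igh and Igk remained higher and Igl lower in BM by this test, and the Igh difference fell from 1.59 to 0.995 per 1000.

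**Figure D1:**
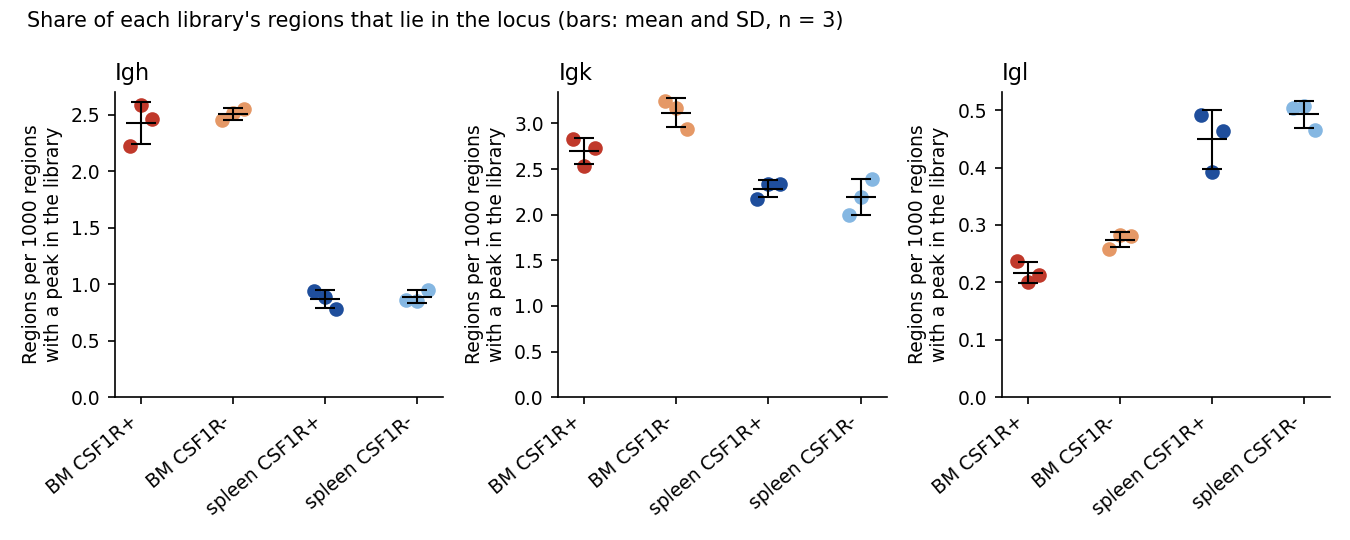
Member regions with a peak per 1000 regions with a peak in the same library (y axis), for Igh, Igk and Igl, in the 4 groups. Each point is a library and bars are the mean and SD of 3 libraries; the BM points lie above all spleen points at Igh and Igk and below them at Igl.

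Within each tissue the CSF1R+ and CSF1R- libraries lay closer together. Igh regions made up 2.43 ± 0.185 per 1000 (SD, n = 3) in BM CSF1R+ and 2.51 ± 0.0522 in BM CSF1R-, and 0.870 ± 0.0829 and 0.891 ± 0.0547 in spleen. Labels were exchanged within tissues in an exact permutation test (400 combinations, n = 3 per group), and the mean difference of -0.0514 had an adjusted p = 0.465. Igk regions made up 2.70 ± 0.147 in BM CSF1R+ and 3.12 ± 0.162 in BM CSF1R-, without overlap, and 2.28 ± 0.0940 and 2.19 ± 0.201 in spleen. The mean difference of -0.165 had an adjusted p = 0.228 by the same exact test. The Igk difference in BM minus that in spleen was -0.509, with an exact permutation p = 0.045 that became 0.135 after adjustment over the 3 loci. At 3 libraries against 3, BM alone allows no exact p below 0.1, which is the value Igk gave there. Promoter peaks of B-lineage and early B-cell genes also summed lower in BM CSF1R+ than in BM CSF1R- libraries without overlap, as given above. For the B-lineage genes this held only with Cd22 included. The sums were not scaled between libraries. The median fold enrichment over all peaks was also lower in BM CSF1R+ (7.34, 7.88 and 8.12) than in BM CSF1R- libraries (8.59, 8.24 and 8.23). The part of these differences in the shares was not tested. Igl regions made up 0.217 ± 0.0182 in BM CSF1R+ and 0.274 ± 0.0133 in BM CSF1R-, without overlap, and 0.449 ± 0.0516 and 0.493 ± 0.0231 in spleen. The mean difference of -0.0504 passed the exact test at an adjusted p = 0.0225. It was -0.00197 with lists of equal length (exact test, adjusted p = 0.845), and missed the threshold without spleen CSF1R+ replicate 2 (adjusted p = 0.0525), spleen CSF1R- replicate 1 (0.0525) or spleen CSF1R- replicate 2 (0.06).

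Position along the locus was described next, with each V part split into 3 equal stretches. In Igh the stretch of 812 kb nearest the D segments, the proximal stretch, had the largest ratio of BM to spleen, over few spleen peaks. A peak was present in 20, 34, 33, 24, 29 and 29 of its 51 regions in BM and in 3, 1, 2, 2, 1 and 2 in spleen, a ratio of means of 15.4. The middle stretch averaged 53.7 of 79 regions in BM and 11.3 in spleen, and the distal stretch 67.0 of 90 and 10.0. BM libraries were above spleen libraries in each of the 3 stretches. The numbers in the intervals outside the V part lay closer together with these full lists. The stretch below Igha, where the known enhancers at the 3′ end of the locus lie, averaged 4.83 of 8 regions in BM and 4.33 in spleen. The constant genes averaged 9.33 of 19 and 7.50, and the interval between Ighm and the J segments 2.67 of 3 in both tissues. The D cluster averaged 4.33 of 9 and 3. No library had a peak in the 44.9 kb between the D cluster and the first V segment, or among the J segments.

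**Figure D2:**
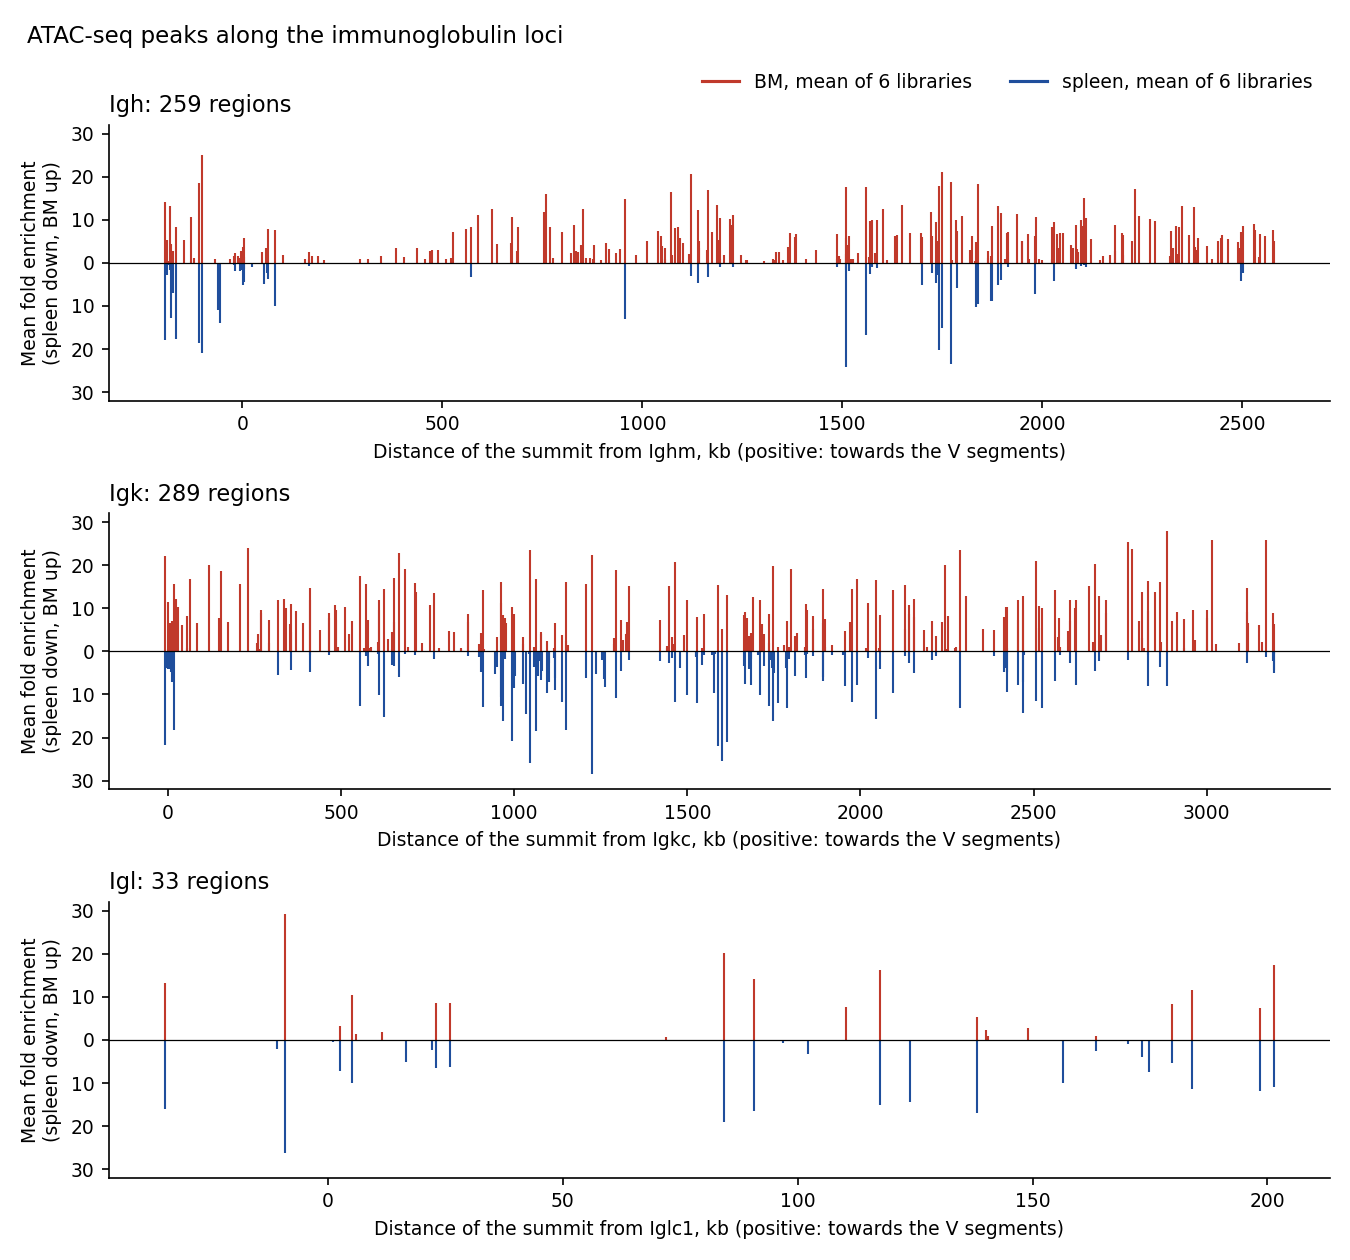
Mean fold enrichment of each region in BM (upward, red) and spleen (downward, blue), with a library without a peak counted as 0, against the distance of the summit from the constant gene in kb. Spleen lines are sparse over the part of the Igh V segments nearest Ighm and denser farther out, while the middle of Igk carries lines of like height in both tissues.

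The kappa locus had its tissue contrast at both ends of the V part. In its distal stretch, farthest from the J segments, 59, 67, 67, 67, 70 and 67 of 85 regions had a peak in BM and 22, 22, 24, 19, 20 and 25 in spleen. In the proximal stretch the counts were 64, 59, 67, 78, 73 and 73 of 93 in BM and 26, 27, 25, 17, 25 and 27 in spleen. In the middle stretch they were 50, 58, 53, 60, 64 and 63 of 100 in BM and 49, 57, 55, 39, 43 and 53 in spleen, so that the tissues overlapped and the ratio of means was 1.18. The BM CSF1R+ counts were below the BM CSF1R- counts in the middle and the proximal stretch, without overlap, and overlapped in the distal one. Between the last V segment and Igkj1, both tissues averaged 4 of 5 regions.

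List length was also evened out by keeping the best peaks of each list, as many as in the shortest. Over all regions the ratio of BM to spleen counts then became 1.01, against 1.49 with the full lists. At equal length the ratio was 8.13 in the proximal, 2.64 in the middle and 3.63 in the distal Igh stretch. In Igk it was 2.19 in the proximal and 2.57 in the distal stretch, while the middle stretch turned to 0.717, with fewer regions in BM. The Igh intervals outside the V part also had fewer regions in BM then, with ratios of 0.85 below Igha, 0.676 in the constant genes, 0.75 between Ighm and J and 0.333 in the D cluster, each over 10 regions or fewer. The whole Igl window had a ratio of 0.583.

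**Figure D3:**
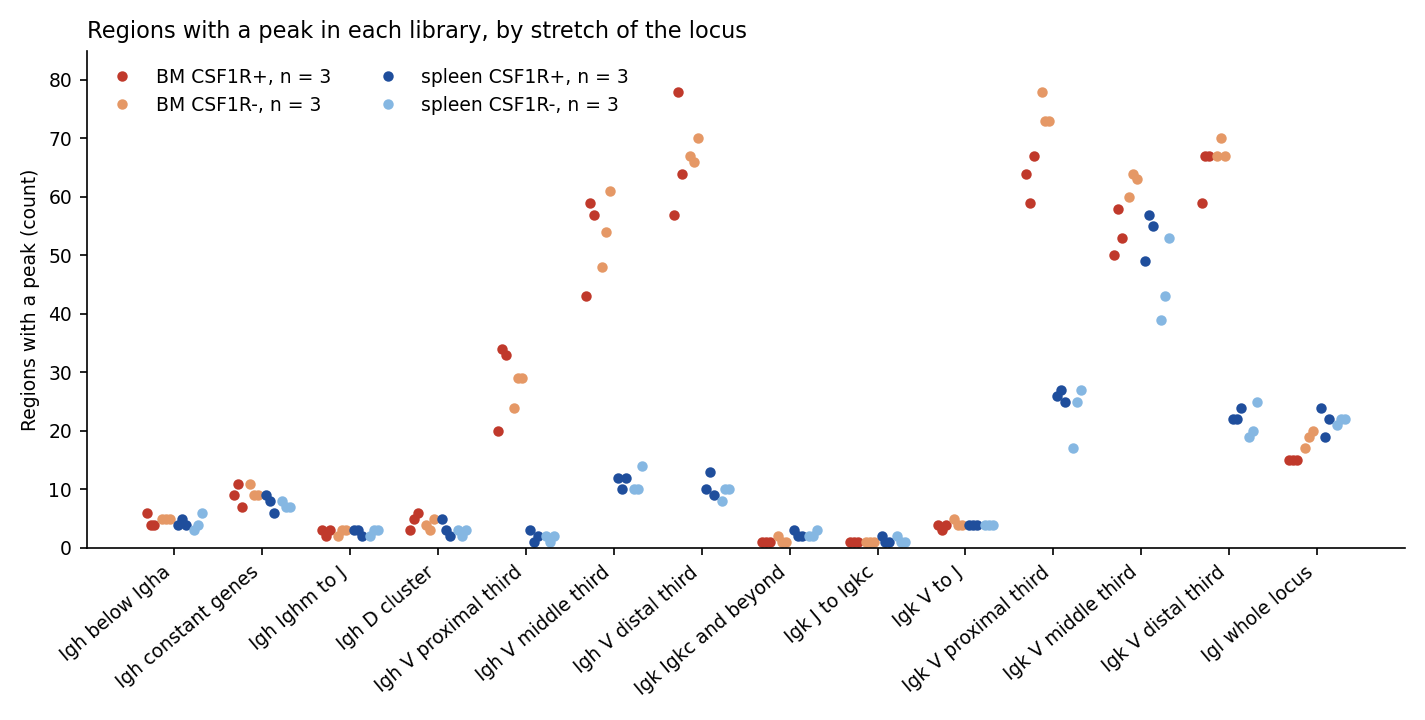
Number of regions with a peak (y axis) in each stretch of the loci, one point per library, coloured by group (3 libraries each). BM libraries lie above spleen libraries in the Igh V stretches and at both ends of the Igk V part. They lie mostly beside them in the middle of Igk and in the other stretches, while spleen points tend to be higher from Igkc onward and in Igl.

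Peaks in every BM library, with none in any spleen library, were found at 119 of the 581 members (20.5%), where 11.2% of all regions had this pattern. Of these 119, 57 were in Igh, 61 in Igk and 1 in Igl. They were 21.6% of the proximal, 21.5% of the middle and 30% of the distal Igh regions, 29.4% of the distal and 30.1% of the proximal Igk regions, and 8% of the middle Igk regions. With lists of equal length they numbered 56 of 372 members (15.1%), against 6.79% of all regions, and the order of the Igh stretches turned, with 37.5% of 16 proximal, 11.1% of 45 middle and 16.7% of 54 distal regions. The opposite pattern, all 6 spleen and no BM library, was found at 15 members (2.58%) against 2.01% of all regions: 2 in Igh, 9 in Igk and 4 in Igl. At equal length these were 25 (6.72%) against 6.06%. No spleen library had a peak at 197 Igh regions (76.1%), 135 Igk regions (46.7%) and 7 Igl regions (21.2%), against 42% of all regions. A peak in all 12 libraries was found at 74 members (12.7%), with 18 in Igh, 44 in Igk and 12 in Igl, against 30.1% of all regions.

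V segments were counted as marked where a peak lay within 500 bases in at least 4 of the 6 libraries of a tissue. Of 115 Igh V segments annotated as functional, 53 (46.1%) were marked in BM and 6 (5.22%) in spleen, and of 81 Igh V pseudogenes 16 and 2 were marked. Of 102 functional Igk V segments, 79 (77.5%) were marked in BM and 39 (38.2%) in spleen, and of 74 pseudogenes 18 and 8. V families, which group segments and pseudogenes of like sequence, were counted in the same way. The largest Igh family, Ighv1, had 41 of 93 segments marked in BM and 3 in spleen, and Ighv8 had 10 of 16 and 3. Ighv5, the family of the V segment nearest the D cluster, had 1 of 22 in BM and 0 in spleen. In Igk, Igkv4 had 19 of 33 marked in BM and 17 in spleen, while Igkv3 had 10 of 13 and 0, Igkv1 10 of 13 and 2, and Igkv14 7 of 8 and 2. None of the 18 Igkv13 segments was marked in either tissue. A region exists only where a list holds a peak, while V segments were counted with or without one, so their shares are not on 1 scale. Over all regions 62.9% had a peak in at least 4 BM libraries and 43.1% in at least 4 spleen libraries. With lists of equal length, counted after these values were seen, these shares were 59.1% and 59.0%. Functional Igh V segments marked were then 17 in BM and 3 in spleen, and functional Igk ones 61 and 30. Pseudogenes marked were 3 and 2 in Igh, where the tissues then lay close together, and 10 and 6 in Igk. Ighv1 had 11 and 1, Ighv8 4 and 3, Igkv3 7 and 0, Igkv1 8 and 1 and Igkv14 5 and 2, while Igkv4 turned to 9 in BM and 17 in spleen. Reads that map to more than 1 place were dropped in the deposited lists, so near-identical V segments may be under-counted, and the part of this in the counts was not tested.

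Peak summits took different places at heavy and kappa V segments. Of 220 regions in the Igh V part, 64 (29.1%) had their summit within 500 bases after the nearest V segment, at a median of 50 bases past its end, and 33 (15.0%) inside it. There were 10 (4.55%) within 500 bases before it, and 113 (51.4%) lay farther away. Of 278 regions in the Igk V part, 82 (29.5%) lay before the V segment, at a median of -86.5 bases from its start, and 63 (22.7%) after it, at a median of 50 bases past its end. There were 7 (2.52%) inside and 126 (45.3%) farther away. The octamer was found in 74.4% of the 82 Igk windows before a V segment and in 25.4% of the 63 after one, and of the latter in 15 of the 21 in the middle stretch. The heptamer was found in 90.5% of the 63 and in 6.10% of the 82. Windows were grouped by their place at the V segment, where V promoters and recombination signals lie, so these shares follow in part from the grouping.

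**Figure D4:**
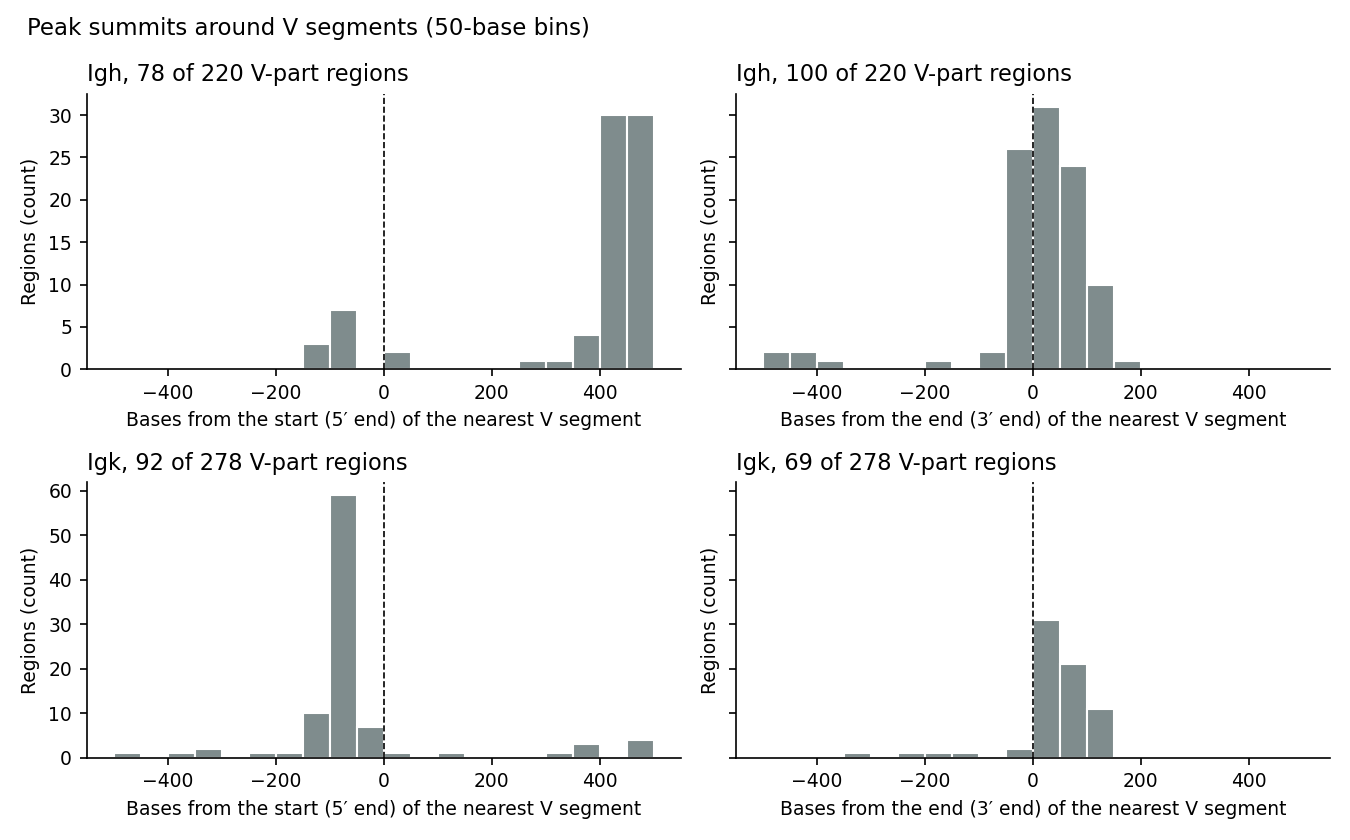
Number of regions (y axis) by the distance of the peak summit from the start (left) and the end (right) of the nearest V segment in bases, in bins of 50 bases, for Igh (top) and Igk (bottom). Igh summits gather at the V segment end, and Igk summits gather both just before its start and just after its end.

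Sequence letters differed between the loci in the 300-base windows. The octamer was present in 31.8% of Igk, 5.02% of Igh and 6.06% of Igl windows, against 3.18% of the windows of all 101330 regions that could be read. The heptamer was present in 39.0% of Igh, 24.6% of Igk and 15.2% of Igl windows, against 9.82%. The heptamer and the nonamer with a spacer of 12 bases, as kappa V segments carry them, were found in 17 Igk windows and in no Igh or Igl window. Over all regions there were also 17 such windows. The CTCF core was present in 18.5% of Igh, 2.08% of Igk and 3.03% of Igl windows, against 10.9%. Within Igh it was found in 17 of the 25 proximal-stretch windows (68.0%) that lay just after a V segment. In the distal stretch it was found in 36.0% of the 50 windows over 500 bases from any V segment and in none of the 20 just after one. The E box was present in 30.9% of Igh, 25.3% of Igk and 36.4% of Igl windows, against 25.0%. The EBF1 core was present in 3.86%, 11.4% and 12.1%, against 13.5%, the ETS-IRF element in 11.2%, 6.57% and 18.2%, against 11.8%, and the NF-kappaB element in 2, 1 and 0 windows, against 0.417% of all. These are matches of letters and not shown binding sites.

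Strength could be compared in all libraries at the 74 members with a peak in each, by limma on log2 fold enrichment centred on each library's median, with Benjamini-Hochberg adjustment over all 30492 such regions. Of the 74, 29 were stronger in BM (39.2%, against 22.9% of all regions) and 17 weaker (23%, against 28.2%). Without centring these were 23 and 20 (17.7% and 37.1% of all regions). With the -log10 p of the peak in place of fold enrichment they were 27 and 30 (36.5% and 40.5%, against 27.1% and 35.7% of all regions), so that the weaker ones became the larger number, and in Igl 1 was stronger and 7 weaker. Igh had 5 stronger and 7 weaker of 18, Igk 18 and 9 of 44, and Igl 6 and 1 of 12. The median log2 difference of BM minus spleen was -0.09 in Igh, 0.18 in Igk and 0.16 in Igl, against -0.03 over all regions. Members without a peak in spleen did not enter this comparison.

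The intronic region between the Igk J segments and Igkc (chr6:70725590-70726678), which reaches into Igkc and covers the known intronic enhancer, had the lowest adjusted p of the 74 members. Its fold enrichment was 12.8, 13.0, 11.2, 11, 10.8 and 10.4 in BM and 4.66, 4.37, 4.15, 3.43, 3.32 and 4.29 in spleen. The tissues did not overlap, and the log2 difference was 1.59 (SE 0.08, limma adjusted p = 6.7e-08). Beyond Igkc, at chr6:70735175-70736195, where another kappa enhancer is known, fold enrichment was 19.9 to 24.9 (median 21.9) in BM and 19.1 to 24.7 (median 21.5) in spleen. The tissues overlapped there, and the log2 difference was 0.09 (SE 0.07, adjusted p = 0.27 by limma). With the -log10 p of the peak it turned to -0.57 (limma adjusted p = 0.0012), higher in spleen. A weak region between them, chr6:70727815-70728523, had a peak in the 6 spleen libraries alone, at 3.53 to 4.17. Between the last V segment and Igkj1, chr6:70718795-70719330 had 5.58, 7.61, 5.01, 6.05, 8.89 and 5.74 in BM and 4.13, 4.8, 4.33, 3.15, 3.65 and 4.24 in spleen, a log2 difference of 0.74 (SE 0.13, limma adjusted p = 0.0007). The other named regions of that interval, chr6:70709185-70709993 and chr6:70714299-70714646, did not pass the test, with log2 differences of -0.13 and 0.05.

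In the heavy chain locus the interval between Ighm and the J segments, which holds the known intronic enhancer, had 2 regions in all 12 libraries that went in opposite directions. The one nearer the J segments, chr12:113427302-113427701, had 5.97, 5.94, 5.53, 6.05, 5.17 and 5.56 in BM and 4.24, 4.44, 3.98, 4.72, 4.95 and 3.73 in spleen. It did not overlap between tissues, and the log2 difference was 0.47 (SE 0.09, limma adjusted p = 0.00074). The one nearer Ighm, chr12:113424229-113425580, had 3.57, 3.96, 3.80, 3.41, 3.96 and 4.05 in BM and 5.06, 4.95, 5.07, 4.92, 5.30 and 5.47 in spleen. It did not overlap either, with a log2 difference of -0.36 (SE 0.06, limma adjusted p = 0.00056). Both had low fold enrichments for the significance of their peaks: their median -log10 p was 104 and 99.9, where peaks of like fold enrichment in the same libraries had medians of 12.2 and 9.84. The reason was not tested.

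The stretch below Igha, on the side of the 3′ enhancers, differed region by region. At chr12:113240875-113241864 a peak was present in BM alone, at 12.9, 11.7, 12.7, 13.3, 14.2 and 13.6. At chr12:113244349-113245424 fold enrichment was 4.97, 3.63, 4.41, 5.08, 3.96 and 4.47 in BM and 12.9, 12.2, 11.6, 13.2, 13.9 and 12.3 in spleen. This was the largest fall among the 74 members, with a log2 difference of -1.45 (SE 0.10, limma adjusted p = 5.4e-07). At chr12:113227860-113228956, the highest region of the stretch, fold enrichment was 13.4 to 15.1 (median 14.2) in BM and 16.4 to 19.8 (median 17.6) in spleen, a log2 difference of -0.26 (SE 0.06, limma adjusted p = 0.0034, and 0.0814 with the -log10 p of the peak). Within Igha itself, chr12:113257171-113257772 had 4.8, 7.2, 6.21, 12.9, 11 and 7.77 in BM and 20.5, 18.0, 17.1, 15.2, 17.4 and 17.3 in spleen. Its log2 difference was -1.08 (SE 0.11, limma adjusted p = 1.3e-05). In BM the CSF1R+ libraries lay below the CSF1R- libraries, a difference that was not called (log2 -0.68, limma adjusted p = 0.36). Near Ighg3, a constant gene of the IgG class, chr12:113366420-113366898 had a peak in spleen alone, at 15.5, 14.6, 13.5, 13.3, 11.6 and 15.8.

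**Figure D5:**
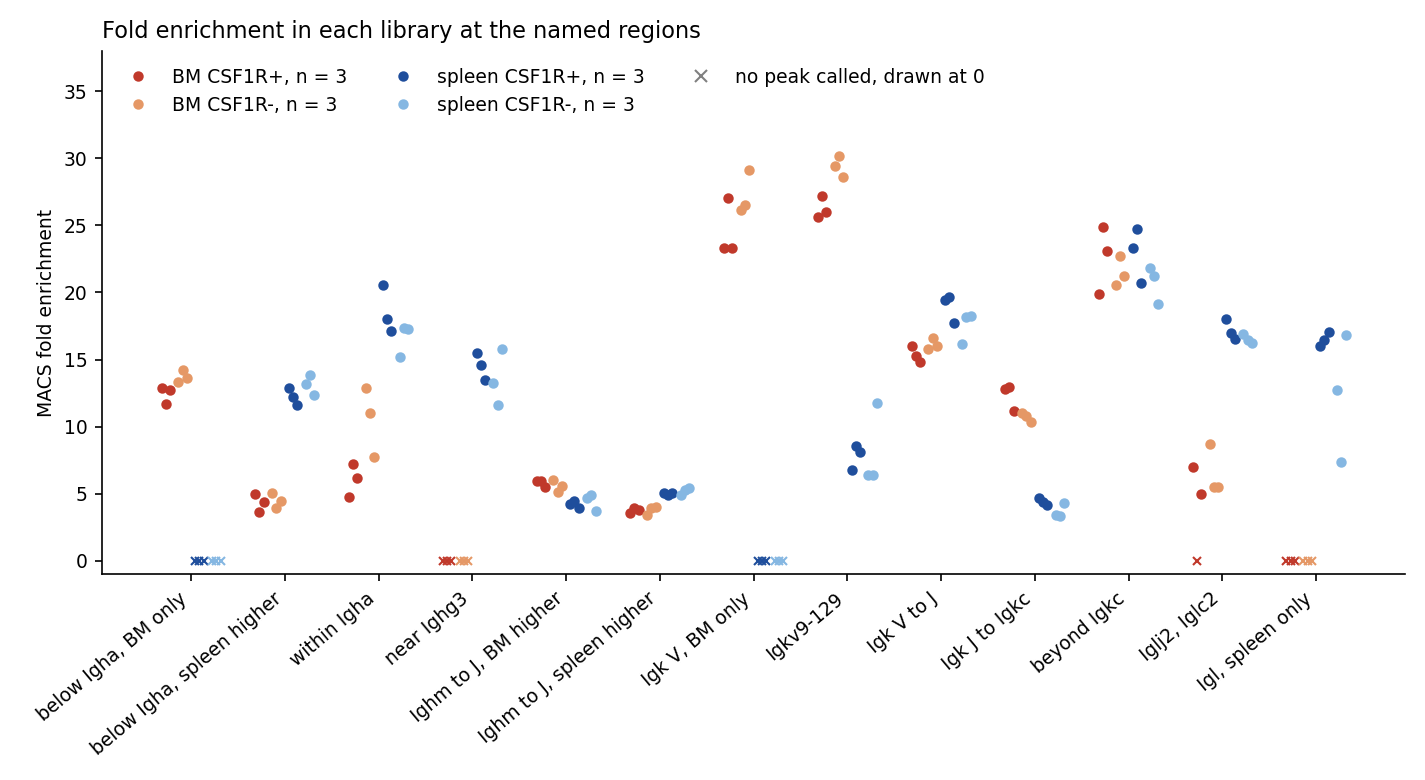
MACS fold enrichment (y axis) in each library at 13 member regions, coloured by group with 3 libraries each, with crosses at 0 where no peak was called. Spleen points lie above BM points at the regions within Igha and at Iglj2 with Iglc2, BM points lie above spleen points between the Igk J segments and Igkc, and both tissues lie together beyond Igkc.

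Several Igk V regions with high peaks in BM had no peak or a weaker one in spleen. At Igkv14-134-1, chr6:67711470-67712122 had 23.3, 27.0, 23.3, 26.2, 26.5 and 29.1 in BM and no peak in spleen. Its octamer is shown in the sequence above. The same pattern held at Igkv9-124 (chr6:67942219-67942863, 19.3 to 26.0, median 24.2) and at chr6:70493740-70494448 (20.2 to 26.3, median 24.2), a region that lies 380 bases from a V pseudogene. At Igkv9-129, chr6:67839412-67840089 had 25.6, 27.2, 26.0, 29.4, 30.1 and 28.6 in BM and 6.75, 8.55, 8.10, 6.43, 6.43 and 11.7 in spleen. This was the largest rise among the 74 members, a log2 difference of 1.90 (SE 0.13, limma adjusted p = 7.1e-07). Among Igk V regions, Igkv19-93 and the pseudogene Igkv11-114 followed with log2 differences of 1.23 (SE 0.18) and 1.14 (SE 0.12).

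Regions of the middle and the neighbouring proximal Igk stretch included the highest spleen values. At Igkv4-58, chr6:69499886-69500603 had 18.5 to 25.7 (median 22.4) in BM and 25.7 to 32.3 (median 28.1) in spleen, the highest BM value (25.69) lying just under the lowest spleen value (25.74), and a log2 difference of -0.27 (SE 0.07, limma adjusted p = 0.0045). At Igkv4-51, chr6:69681161-69681755 had 19.9 to 25.2 (median 23.9) in BM and 22.2 to 31.2 (median 25.2) in spleen, and the difference of -0.06 (SE 0.09) was not called (limma adjusted p = 0.6). Away from V segments, chr6:69732722-69733231 had 9.38, 6.53, 10.7, 12.9, 10.3 and 12.3 in BM and 25.2, 23.1, 20.8, 16.5, 19.7 and 18.9 in spleen, a log2 difference of -0.94 (SE 0.11, limma adjusted p = 4.1e-05). The region chr6:69758695-69758964 fell by 0.87 on the log2 scale (SE 0.11), and chr6:69692209-69692948 had a peak in spleen alone, at 10.2 to 18.4. These 5 regions lie between 968 and 1226 kb from Igkc. Farther out, at 1590 kb and 1112 bases from a V pseudogene, chr6:69136629-69137315 had 12.6 to 18.8 (median 14.5) in BM and 20.7 to 24.5 (median 20.9) in spleen, without overlap, and a log2 difference of -0.45 (SE 0.08, limma adjusted p = 0.00045).

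In the Igh V part 3 regions of the middle stretch had the highest mean fold enrichment. At chr12:114931163-114931554, 999 bases from the pseudogene Ighv1-41, it was 15.9 to 19.9 (median 16.9) in BM and 22.6 to 26.0 (median 23.6) in spleen, a log2 difference of -0.39 (SE 0.07, limma adjusted p = 0.00089). At Ighv1-54, chr12:115193297-115194218 had 17.3 to 20.3 and 21.1 to 27.7, without overlap, and a log2 difference of -0.23 (SE 0.08, limma adjusted p = 0.034). This call was lost without BM CSF1R+ replicate 3, any of the BM CSF1R- replicates, spleen CSF1R+ replicate 1 or 3, or spleen CSF1R- replicate 1 (limma adjusted p = 0.0549 to 0.0850), and with quantile normalization (0.0812). At Ighv8-6, chr12:115165298-115166490 had 15.5 to 19.7 and 15.7 to 22.2, and its difference of -0.10 was not called (limma adjusted p = 0.37). Around the pseudogene Ighv8-7 a pair of neighbouring regions went opposite ways. The region at the segment, chr12:115257666-115258342, had 5.06, 4.20, 5.38, 4.78, 5.29 and 5.02 in BM and 10.8, 8.86, 11.5, 9.34, 9.86 and 10.7 in spleen. The region 4172 bases from it, chr12:115262211-115263003, had 17.7, 17.9, 18.9, 21.3, 16.3 and 18.2 in BM and 10.7, 12.9, 10.5, 6.89, 7.0 and 8.82 in spleen. Neither overlapped between tissues, with log2 differences of -0.96 (SE 0.10) and 1.07 (SE 0.08).

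Regions over lambda J segments were described next. The region over Iglj2 and Iglc2, chr16:19199829-19200512, had 6.98 in BM CSF1R+ replicate 1, no peak in replicate 2 and 5.01 in replicate 3, and 8.71, 5.50 and 5.54 in BM CSF1R-. In spleen it had 18.0, 17.0, 16.5, 16.9, 16.5 and 16.2. The tissues did not overlap, and no test was made because a BM library had no peak. The region over Iglj3, chr16:19066805-19067325, had 8.04 to 13.6 (median 10.6) in BM and 8.94 to 11.5 (median 10.3) in spleen, with overlap and a log2 difference of 0.10 (SE 0.11, limma adjusted p = 0.49). With the -log10 p of the peak this turned to -1.23 (limma adjusted p = 0.00033), higher in spleen. Peaks in spleen alone were found at chr16:19185561-19186212 (16.0, 16.4, 17.0, 12.8, 7.40 and 16.9), chr16:19218089-19218681 (7.63 to 12.4), chr16:19236177-19237073 (6.75 to 7.99) and chr16:19234998-19235638 (2.91 to 4.88). The Igl region in BM alone was chr16:19172184-19172476, at 6.33, 10.4, 10.5, 5.42, 5.04 and 7.77.

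The 3 lambda V segments did not move together. At Iglv3, chr16:19241172-19241985 had 9.5, 8.06, 7.96, 8.05, 8.55 and 8.22 in BM and 5.44, 5.04, 5.61, 5.30, 5.10 and 5.38 in spleen, a log2 difference of 0.73 (SE 0.08, limma adjusted p = 2.5e-05). This direction turned, without passing the test, when the -log10 p of the peak was used in place of fold enrichment (log2 difference -0.25, limma adjusted p = 0.188). At Iglv2, chr16:19260249-19260710 had 8.47, 5.13, 8.39, 6.99, 8.22 and 7.03 in BM and 11.3, 12.4, 11.7, 9.45, 14.1 and 12.7 in spleen, a log2 difference of -0.63 (SE 0.14, limma adjusted p = 0.0032). At Iglv1, chr16:19084868-19085688 had 5.95, 7.98, 9.38, 8.70, 11.4 and 8.48 in BM and 8.72, 6.90, 7.48, 5.88, 5.16 and 5.40 in spleen. The tissues overlapped there, and the log2 difference was 0.47 (SE 0.11, limma adjusted p = 0.0039). The highest region of the locus, chr16:19052698-19053229, had 26.8 to 30.5 (median 29.4) in BM and 24.4 to 28.5 (median 25.9) in spleen, a log2 difference of 0.23 (SE 0.05, limma adjusted p = 0.0024). With the -log10 p of the peak, neither of the last 2 regions passed the test (limma adjusted p = 0.542 and 0.552).

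Between CSF1R+ and CSF1R- cells no member passed the test for strength. In BM 262 members had a peak in all 6 libraries, and limma called none in either direction, as it called 0% of all 50358 regions. At an unadjusted p under 0.05, 17 members (6.49%, against 5.14% of all regions) were stronger and 30 (11.5%, against 4.34%) weaker in CSF1R+ cells. In spleen none of 103 members was called, against 0% of all 35953 regions, with 5 stronger (4.85%, against 2.74%) and 3 weaker (2.91%, against 3.37%) at the unadjusted threshold. The CSF1R difference in BM did not differ from that in spleen at any of the 74 members (0% of 30492 regions were called, and before adjustment 3 members, 4.05%, were higher and 3 lower, against 6.08% and 3.18% of all regions). In simulated data with 100 differences planted per size, log2 differences of 1 were recovered at 32% in BM and 52% in spleen, and those of 0.5 at 0% and 2%. Recovery depends on how many regions differ, so these rates hold for that setting only. The paper, using a model of read counts, reported regions more open in BM CSF1R+ than in BM CSF1R- cells, and none that differed in spleen. Peak lists hold no counts, and strength was compared here only where every list of the comparison held a peak. The lack of calls therefore does not show that the BM groups are alike.

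All-or-none CSF1R differences were few. A peak in all 3 BM CSF1R+ and no BM CSF1R- library was found at 4 members (0.688%), all in Igh, against 0.613% of all regions. These lay near Ighv7-1 (chr12:113896272-113896464, 5.45, 5.63 and 6.68), Ighv9-2 (chr12:114108796-114109506, 3.93, 6.75 and 5.32) and Ighv1-23 (chr12:114764362-114764796, 3.71, 6.30 and 4.54), and among the constant genes (chr12:113402863-113403112, 3.34, 3.23 and 3.63). The opposite pattern in BM was found at 7 members (1.20%) against 0.503%, with 3 in Igh, 2 in Igk and 2 in Igl. The highest were chr16:19210996-19211343 (6.97, 4.81 and 4.11), chr12:115287136-115287611 (7.22, 4.58 and 5.26) and chr12:114257666-114257869 (5.93, 5.18 and 5.59). In spleen 3 members (0.516%) had peaks in CSF1R+ libraries alone, against 0.439%: Ighv1-81 (chr12:115920137-115920951, 8.15, 6.56 and 10.3), its neighbour chr12:115924036-115924327 (5.06, 4.85 and 4.75) and Igkv1-117 (chr6:68120665-68121339, 4.78, 5.42 and 5.87). Each of these 3 also had a peak in all 6 BM libraries. No member had peaks in spleen CSF1R- libraries alone, where 0.0336% of all regions did. The fold enrichments given here lay below the median of their library, except at Ighv1-81 in spleen CSF1R+ replicate 3 (10.3, against a median of 9.22). The shares of members lay near those of all regions except for that of BM CSF1R- alone. Its 7 of 581 members became 3 of 372 with lists of equal length, where the share over all regions was not counted. Counts over 3 libraries moved when a library was left out: 10 members were in BM CSF1R+ alone without BM CSF1R+ replicate 1, and 11 to 15 in BM CSF1R- alone without any 1 of the BM libraries. Those in spleen CSF1R+ alone became 7, 6 and 8 without spleen CSF1R+ replicate 1, spleen CSF1R+ replicate 2 and spleen CSF1R- replicate 3. A pattern over fewer libraries is met more often by construction. The matching shares over all regions were not counted, so these changes cannot be read as particular to the members.

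The genes that act on these loci were described by their promoter peaks. Of 16 genes for recombination, the surrogate light chain and the antigen receptor's signalling partners, 12 had a promoter peak in all 6 BM libraries and 8 in all 6 spleen libraries. Rag2 had a fold enrichment of 9.95 to 12.7 in BM and a peak in 3 spleen libraries, at 4.47 to 5.31. The surrogate light chain genes Vpreb2 and Igll1 had peaks in BM alone, at 6.45 to 12.2 and 7.74 to 10.5. Their partner Vpreb1 had a peak in all 12 libraries, at 8.87 to 15.8 in BM and 17.0 to 22.2 in spleen. The end-joining genes Xrcc4, Xrcc5, Lig4, Dclre1c and Nhej1, which all cells use, had peaks in all 12 libraries, and no library had one at Dntt, which adds bases at the joins, at Vpreb3, or at the end-joining genes Xrcc6 and Prkdc, which all cells use too.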

How the data were processed

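The 12 ATAC-seq libraries were sequenced in pairs of reads by the authors, trimmed with cutadapt, aligned to mm10 with BWA, and reduced to de-duplicated, uniquely mapped reads outside blacklisted stretches. MACS2 then called peaks per library; tool versions are not given in the sources used here. The deposited narrowPeak lists hold the authors' MACS fold enrichment (a ratio to the local background), the −log10 p-value and the −log10 q-value of each peak, with the lowest q at the limit of 0.01. Fold enrichment is not scaled between libraries, and no read counts were used. The union table of the series and the single-cell files of the other samples were not used here.

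Peaks were merged where they overlapped by 1 base, and a region's value in a library is the fold enrichment of its best peak. Members and lists were chosen with earlier results of these data known, and some genes of the marker and pathway lists are not reported here. Shares were compared by exact permutation tests over libraries, and log2 fold enrichment, centred on the library median, by limma 3.58.1 (R 4.3.3), with Benjamini-Hochberg adjustment over all regions fitted and a threshold of 0.05. The limma step was tested on simulated data with 100 differences planted per size. Over 30492 regions between tissues, 77% of planted log2 differences of 0.5 and 96% of 1 were recovered, and 6.49% of calls were not planted. In BM, 50358 regions were simulated, and in spleen 35953. Alternatives were a −log10 q of at least 5, lists of equal length, a peak cover of 50%, quantile normalization, no centring, −log10 p, absent peaks at the library's lowest value, a replicate block and leaving out each library.

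Named regions were, by rule, up to 3 of highest mean fold enrichment in each interval outside the V segments and in each V part, all Igl regions with a peak in at least 6 libraries, up to 5 called regions of largest difference in each direction, and the all-or-none regions (3 if over 5). The region within Igha, the neighbours of Ighv8-7, Igkv19-93 and Igkv11-114 fell under the rule of largest differences. Sequences were read with pysam 0.24.0 from GRCm38. Immunoglobulin segments and their listing as pseudogenes were taken from the GENCODE annotation of GRCm38. Tables were made with Python 3.11.15, numpy 2.4.6 and pandas 2.3.3, and plots with matplotlib 3.10.9.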

Additional observations from a re-analysis of the deposited data

Results flagged for a closer look

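In 3 of 93 sets of 6 values of a tissue, over the shares and the named regions, 1 library lay far from the other 5 by Dixon's test at the 95% level, which chance gives in about 1 of 20 sets. At chr16:19026899-19027975 in Igl, spleen CSF1R+ replicate 1 had a fold enrichment of 20.7, where the other spleen libraries had 13.99 to 16.1. At chr16:19064346-19065124, spleen CSF1R+ replicate 2 had 6.24, where the others had 7.21 to 7.53. At chr16:19263157-19263667, BM CSF1R+ replicate 1 had 12.3, where the others had 17.5 to 19.2. The difference in the Igk share between CSF1R+ and CSF1R- libraries in BM, less that in spleen, was -0.509 regions per 1000. It reached an exact permutation p = 0.045 over 400 combinations and did not pass after adjustment over the 3 loci (0.135).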

How the results depend on the processing

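The tissue differences in the shares of Igh, Igk and Igl regions kept their direction and passed their test with a −log10 q of at least 5, lists of equal length, the 50% cover, the replicate block and each library left out, the alternatives run for shares, with ranges of 1.56 to 1.64, 0.615 to 0.754 and -0.241 to -0.217 regions per 1000 when single libraries were left out. The Igh one fell to 0.995 with lists of equal length, and the Igk one rose to 1.06 where a peak had to cover 50% of the region. The CSF1R difference in the Igl share became -0.00197 with lists of equal length and -0.0611 to -0.0361 with libraries left out. The Igh one became 0.0162 where a peak had to cover 50% of the region, and -0.0929 to 0.00215 with libraries left out, the highest without BM CSF1R+ replicate 1. With lists of equal length there were 56 regions in BM alone, 25 in spleen alone, 3 in BM CSF1R- alone and 1 in spleen CSF1R- alone. With the 50% cover there were 6 in spleen CSF1R+ alone and 1 in spleen CSF1R- alone. Leaving out single libraries gave 119 to 134 in BM alone, 15 to 17 in spleen alone, 4 to 10 in BM CSF1R+ alone, 7 to 15 in BM CSF1R- alone, 3 to 8 in spleen CSF1R+ alone and 0 to 2 in spleen CSF1R- alone. It gave 25 to 31 regions stronger and 16 to 20 weaker in BM. With absent peaks at the library's lowest value there were 320 stronger and 56 weaker in BM. In BM CSF1R+ there were then 4 stronger (0.998%, against 0.871% of all regions) and 7 weaker (1.75%, against 0.63%). In spleen CSF1R+ there were 3 stronger (1.72%, against 0.835%). The CSF1R difference differed between tissues at 14, higher in BM at 4 (0.897%, against 0.791%) and lower at 10 (2.24%, against 0.838%). Alternatives of this last comparison were chosen after seeing the data. Shorter lists hold fewer peaks, and a pattern over fewer libraries is met more often, by construction. Presence fixes calls made with the lowest value: all 11 in BM, 3 in spleen and 14 of the last comparison were all-or-none regions, and 250 of the 376 called between tissues (49% and 19% of all regions were stronger and weaker) had no peak in 1 tissue, so these are no separate test of strength. The cause of the other changes was not tested.

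With −log10 p in place of fold enrichment, 30 members were weaker and 27 stronger in BM, and 6 named regions turned direction: chr6:70735175-70736195 to a log2 difference of -0.57, chr16:19066805-19067325 to -1.23, chr16:19146215-19147114 to -0.56, chr16:19178926-19180067 to -0.26, chr16:19241172-19241985 to -0.25 and chr16:19245807-19246226 to -0.81. Without centring, the median CSF1R difference over all regions shifted by -0.11 in BM and 0.16 in spleen, and the difference of both by -0.27. Of the other values of named regions, 404 with a library left out kept their side of the threshold, 10 lost and 6 gained a call. Under the remaining alternatives 190 kept their side, 7 lost and 7 gained a call. In all these counts a turn of direction was recorded only where either fit called the region. Uncalled values that changed sign are thus among those kept, as at chr6:69681161-69681755 (-0.06, up to 0.00548 with a library left out). Replicates share numbers, but same-numbered libraries of different groups had correlated deviations of -0.0232 to 0.153, and differently numbered ones of -0.161 to 0.0550. Between the CSF1R groups of a tissue, same-numbered libraries had 0.0825 to 0.153 in BM and 0.0331 to 0.121 in spleen. Differently numbered ones there lay lower, at up to 0.0550 in BM and 0.0244 in spleen. All 12 libraries matched best the one of their own number in the other CSF1R group of the tissue. The main tests did not pair libraries by number. With the replicate block, 30 members were stronger and 19 weaker in BM (23.1% and 27.9% of all regions), and no other call over a whole comparison changed. Peak lists limit all of this: an absent peak is no measure of 0, and depth per library is unknown.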
